A study of Homo sapiens with 12 samples.

Results

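FOS, FOSB, FOSL1, FOSL2, JUN, JUNB, JUND and ATF3 are the classical genes of activator protein 1 (AP-1), a family of leucine zipper transcription factors. They were taken as a named list and matched by symbol to the Ensembl identifiers of the count tables, which gave 8 of 57773 genes. All 8 had enough counts to be tested, among 14714 genes tested in all. FOSL1 had enough only through its libraries with bortezomib.

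An AP-1 complex is a dimer, either of 2 JUN proteins or of a JUN protein with a FOS or ATF protein, and it binds short palindromic DNA sites. FOS proteins cannot pair with each other and need a JUN partner. The genes are known for fast induction by growth factors and cell stress through MAP kinases, for mRNAs that are quickly degraded, and for proteins that the proteasome removes. ATF3 is a stress-induced member that also lies downstream of ATF4 in the integrated stress response. In breast cancer cells FOSL1 is best known from the basal, invasive type, whereas luminal lines such as T47D usually hold little of it.

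The 12 RNA-seq libraries came from T47D, a luminal breast cancer line that expresses the estrogen receptor. Cells of every group carried an shRNA, inducible by doxycycline, that targets PSMD2 in the 19S cap of the proteasome. In control cells it was left uninduced, and in the Lo19S state it was induced with 0.2 µg/ml doxycycline over 3 days, followed by 24 h without the drug. Each state then received DMSO or the proteasome inhibitor bortezomib (20 nM) for 16 h, which gives 4 groups of 3 libraries: control DMSO, Lo19S DMSO, control bortezomib and Lo19S bortezomib. Only the Lo19S groups met doxycycline, so knockdown and drug cannot be told apart, and the labels do not say whether the cells were 1 clone. They also do not say whether replicates were grown separately. The p-values measure the spread between these libraries, which may be technical.

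Libraries held 7376597 to 15003480 counts. Levels are CPM, counts relative to library size scaled with TMM factors, and differences are log2 fold changes with their standard error (SE) from edgeR's quasi-likelihood test, with p-values adjusted by Benjamini-Hochberg over all genes tested and called below 0.05. PSMD2, the knockdown target, stood at 408, 392 and 417 CPM in control DMSO and at 183, 189 and 184 CPM in Lo19S DMSO (log2 fold change −1.13), and with bortezomib it was lower in Lo19S by −1.48. All 10 luminal markers had counts in every group, with a summed level of 6310 to 7190 CPM under DMSO and 3900 to 4080 CPM with bortezomib. These sums hide opposite changes: with bortezomib 3 of the 10 were higher and 7 lower in each state (medians −2.49 in control and −1.69 in Lo19S), and with bortezomib 5 were higher and 2 lower in Lo19S against control, such as PGR at 115 against 50.2 CPM. Their part in the results was not tested. The summed fibroblast markers, mostly COL1A1, lay at 26.2 to 33.9 CPM under DMSO and 44.3 to 70.0 CPM with bortezomib, and their part was not tested either. The leukocyte and endothelial lists summed to at most 2.42 and 0.378 CPM, with CD3E and EMCN at 0 in every library. In control DMSO, replicate 3 stood apart from replicates 1 and 2, with chi-square values of 3.98 and 4.36 per degree of freedom, where all other pairs within a group gave 1.16 to 2.01. That library held the highest control DMSO level of FOS, FOSB, JUN, JUNB and JUND and the lowest of ATF3.

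**Figure D1:**
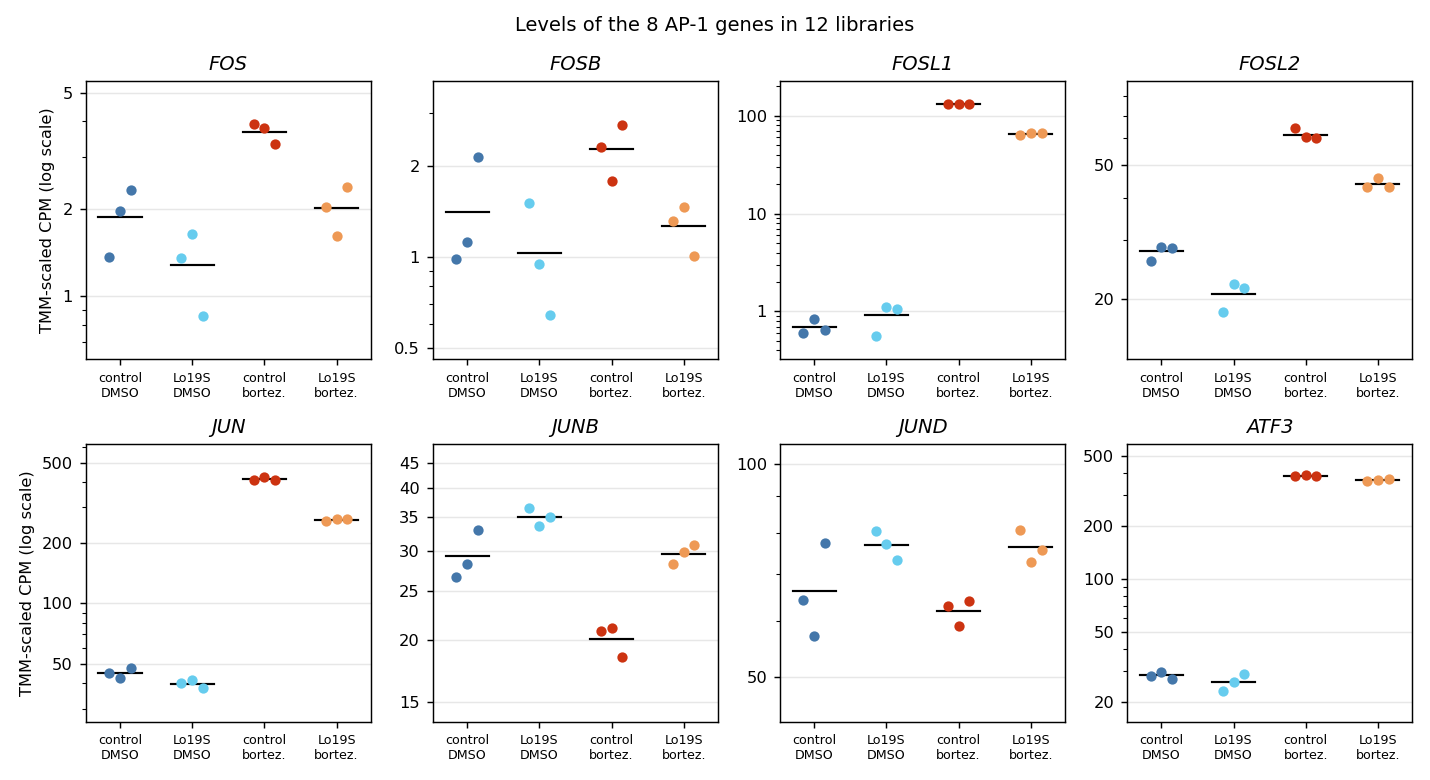
TMM-scaled CPM of each gene in every library on a log axis, with 3 points per group in order of replicate number and a line at the group mean. FOSL1, JUN and ATF3 have bortezomib libraries far above every DMSO library, whereas JUNB is lowest in control bortezomib and JUND spans only 57.3 to 80.8 CPM over all 12 libraries.

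Bortezomib changed 7 of the 8 genes in control cells, 6 upward and 1 downward, and 6 of 8 in Lo19S cells, 5 upward and 1 downward. Among all genes tested, 81.4% were called in control cells (39.2% higher and 42.2% lower) and 77.5% in Lo19S cells (37.8% higher and 39.7% lower), so a call by itself says little here and the sizes carry more. The median log2 fold change of the 8 genes was 1.07 in control cells and 0.88 in Lo19S cells, against −0.04 and −0.02 over all genes. Leaving FOSL1 aside, JUN and ATF3 had the largest changes of these genes in both states. By size of change among 14714 genes ATF3 ranked 402 in control cells and 220 in Lo19S cells, and JUN ranked 654 and 662. FOSL1 is given no rank, since it passed the count filter only where it was high. It is part of the upward counts and of the medians above, and for the same reason it adds no support to them. In bulk RNA a rise or fall in RNA per cell cannot be told apart from a shift in how many cells carry the RNA.

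JUN encodes the founding JUN protein, which activates transcription as a homodimer or with a FOS or ATF partner. It stood at 45.3, 42.5 and 47.8 CPM in control DMSO and at 40.0, 41.7 and 37.8 CPM in Lo19S DMSO. With bortezomib it reached 411, 423 and 409.6 CPM in control cells and 257, 262 and 262 CPM in Lo19S cells. No 2 of the 4 groups overlap, and the order is the same for every library: Lo19S DMSO lowest, then control DMSO, Lo19S bortezomib and control bortezomib. On the log2 scale control cells rose by 3.20 (SE 0.05) with bortezomib and Lo19S cells by 2.71 (SE 0.05), that is 9.18-fold and 6.52-fold (edgeR adjusted p = 3.73e-46 and 7.13e-42). The response in Lo19S cells was smaller by −0.49 (SE 0.07, edgeR adjusted p = 1.92e-07, test of the difference of the responses), and it stayed called in every alternative fitted. Between the states, JUN in Lo19S differed by −0.67 (SE 0.04, edgeR adjusted p = 7.37e-20) with bortezomib and by −0.18 (SE 0.06, edgeR adjusted p = 0.0182) under DMSO. The DMSO call was lost without control DMSO replicate 3 (−0.14, edgeR adjusted p = 0.0674), without Lo19S DMSO replicate 3 (−0.15, adjusted p = 0.099) and with only the DMSO groups in the fit (−0.17, adjusted p = 0.0939), within a range of 0.00691 to 0.099 over its alternatives.

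ATF3 encodes a stress-induced leucine zipper protein that pairs with JUN proteins or with itself. Its levels were 28.0, 29.7 and 27.0 CPM in control DMSO, 23.1, 25.8 and 28.96 CPM in Lo19S DMSO, 382, 391 and 384 CPM in control bortezomib and 358, 365 and 368 CPM in Lo19S bortezomib. The DMSO groups overlap, while every bortezomib library lies more than 10 times above every DMSO library. The rise was 3.77 (SE 0.06, edgeR adjusted p = 3.85e-47) in control cells and 3.82 (SE 0.06, edgeR adjusted p = 8.64e-47) in Lo19S cells. The difference of the responses was 0.05 with a 95% interval of −0.11 to 0.21 (edgeR adjusted p = 0.697), an interval that does not reach the −0.49 found for JUN. With bortezomib ATF3 was at −0.08 in Lo19S against control (SE 0.04, edgeR adjusted p = 0.0772), which was not called although the 2 groups do not overlap. This small difference was called without control DMSO replicate 3 (adjusted p = 0.011), with only the bortezomib groups (adjusted p = 0.0133) and with DESeq2's size factors (adjusted p = 0.0356), and it was 0.03 with library totals in place of TMM factors (adjusted p = 0.598, the largest of its alternatives). Under DMSO the difference was −0.13 (SE 0.07, edgeR adjusted p = 0.172), and it was called without Lo19S DMSO replicate 3 (−0.21, adjusted p = 0.0397, range 0.0397 to 0.697).

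Promoter sequences from RefSeq (GRCh38.p14) were found for 7 of the 8 genes, all but FOSL1, with 2 start sites for ATF3. The second ATF3 window lies far downstream of the first, at chr1:212614768-212615017. Counts per gene do not tell which ATF3 start was used. JUN and the first ATF3 start are the 2 windows with the letters TGACATCA, the form of the AP-1 site through which JUN and ATF2 dimers are known to act at JUN. They are shown as 30-base stretches because these 2 genes had large rises with bortezomib but unlike responses in the Lo19S state; capitals mark TGACATCA, both read 5′ to 3′ on the gene's strand. The JUN stretch is chr1:58784096-58784125 on the minus strand and the ATF3 stretch is chr1:212565273-212565302 on the plus strand, with the match starting 67 and 123 bases before the start.
JUN: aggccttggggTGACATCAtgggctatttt
ATF3: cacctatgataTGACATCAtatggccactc

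Of 35114 RefSeq promoter windows of 250 bases, 2.38% hold TGACATCA on either strand. The first ATF3 window also holds a match to TGATGNAA, the core of sites bound by ATF4 with C/EBP proteins, as do 3.14% of windows. None of the windows of the 7 genes held TGACTCA (the standard AP-1 site, in 4.2% of windows) or a heat shock element (in 0.441%). The motifs were chosen with these sequences in view, and a match or its absence describes only the letters in the window.

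FOSL1 encodes FRA-1, a FOS protein without the strong activation domain of FOS. It was near the floor of detection in DMSO cells, with 24 counts over the 3 control DMSO libraries and 30 over the 3 Lo19S DMSO libraries. Its levels there were 0.604, 0.838 and 0.650 CPM in control and 0.558, 1.12 and 1.07 CPM in Lo19S. In control bortezomib the level was 132, 131 and 132 CPM, and in Lo19S bortezomib it was 64.3, 66.3 and 66.2 CPM. The DMSO groups overlap, and with bortezomib every Lo19S library lies below every control library. The ratio of summed counts, scaled by library size, was 191 in control cells (95% counting interval 128 to 298) and 73.4 in Lo19S cells (51.2 to 109), intervals that cover counting error only.

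Lo19S cells with bortezomib had less FOSL1 than control cells with bortezomib by −1.01 (SE 0.05, edgeR adjusted p = 1.15e-20), and the call stood in every alternative fitted. The difference of the responses was −1.37 (SE 0.40, 95% interval −2.17 to −0.57, edgeR adjusted p = 0.0036). The DMSO levels behind it rest on the 24 and 30 counts above, and the call was lost without Lo19S DMSO replicate 2 (−1.17, edgeR adjusted p = 0.0554, the largest over its alternatives, which began at 0.00136). Under DMSO the states differed by 0.37 with an interval of −0.43 to 1.16 (edgeR adjusted p = 0.543), an interval that does not reach the −1.01 seen with bortezomib.

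FOSL2 encodes FRA-2, the FOS protein with the highest mRNA level per length in DMSO cells here. It stood at 26.0, 28.6 and 28.4 CPM in control DMSO, 18.3, 22.1 and 21.6 CPM in Lo19S DMSO, 64.3, 60.6 and 60.0 CPM in control bortezomib and 43.0, 45.7 and 43.1 CPM in Lo19S bortezomib. The 4 groups do not overlap, and within each treatment the Lo19S libraries are the lower ones. Lo19S differed from control by −0.42 (SE 0.08, edgeR adjusted p = 5.74e-05) under DMSO and by −0.49 (SE 0.07, edgeR adjusted p = 3.53e-08) with bortezomib. Bortezomib raised FOSL2 by 1.16 in control cells and 1.09 in Lo19S cells (edgeR adjusted p = 2.31e-20 and 1.22e-17). The difference of these responses was −0.07 with a 95% interval of −0.28 to 0.14 (edgeR adjusted p = 0.67). FOSL2 was lower in Lo19S in both treatments, and its difference of responses was not called by the test that called those of JUN and FOSL1.

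FOS and FOSB, the classic immediate early genes, had very few reads at 16 h: 8 to 34 counts per library for FOS and 6 to 23 for FOSB. FOS was at 1.36, 1.96 and 2.32 CPM in control DMSO, 1.36, 1.64 and 0.855 CPM in Lo19S DMSO, 3.91, 3.79 and 3.34 CPM in control bortezomib and 2.03, 1.61 and 2.38 CPM in Lo19S bortezomib. Only the control bortezomib libraries are set off from all others. FOS rose with bortezomib in control cells by 0.99 (SE 0.25, edgeR adjusted p = 0.000303), a call that stood in every alternative. Its rise in Lo19S cells was 0.67 (SE 0.30, edgeR adjusted p = 0.0364) with overlapping groups. That call was lost in 7 of 19 alternatives, among them DESeq2 (adjusted p = 0.158), library totals (adjusted p = 0.231) and the fits without Lo19S DMSO replicate 1 (0.70) or 3 (0.49) or without Lo19S bortezomib replicate 1 (0.69) or 3 (0.49), with adjusted p from 0.0192 to 0.231 over all alternatives. With bortezomib FOS was lower in Lo19S by −0.81 (SE 0.25, edgeR adjusted p = 0.00665; 0.0524 by DESeq2, the largest over its alternatives).

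FOSB was at 0.982, 1.12 and 2.14 CPM in control DMSO, 1.51, 0.947 and 0.641 CPM in Lo19S DMSO, 2.32, 1.78 and 2.74 CPM in control bortezomib and 1.31, 1.46 and 1.01 CPM in Lo19S bortezomib. The bortezomib groups do not overlap, and all other pairs of groups that share a state or a treatment do. It was called higher with bortezomib in control cells (0.71, SE 0.32, edgeR adjusted p = 0.0353) and lower in Lo19S against control with bortezomib (−0.90, SE 0.34, edgeR adjusted p = 0.0258). The first call was lost in 7 of 19 alternatives (adjusted p up to 0.327), including the fits without control DMSO replicate 1 (0.47) or 2 (0.59) and without control bortezomib replicate 1 (0.70) or 3 (0.56). Without control DMSO replicate 3, which held its highest DMSO level, the rise was 1.11 (edgeR adjusted p = 0.00289). The second call was lost with DESeq2 (adjusted p = 0.127) and without control bortezomib replicate 1 (−0.89) or 3 (−0.75) or Lo19S bortezomib replicate 3 (−0.71, adjusted p = 0.165, the largest). For FOS and FOSB neither the DMSO difference between the states (−0.49 and −0.37, edgeR adjusted p = 0.235 and 0.496) nor the difference of the responses was called. The latter had 95% intervals of −1.10 to 0.46 for FOS and −1.53 to 0.46 for FOSB, which still include the −0.49 of JUN.

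JUNB and JUND encode JUN proteins that activate less strongly than JUN and often restrain growth. JUNB was at 26.7, 28.2 and 33.1 CPM in control DMSO, 36.5, 33.7 and 35.1 CPM in Lo19S DMSO, 20.8, 21.1 and 18.5 CPM in control bortezomib and 28.3, 29.9 and 30.8 CPM in Lo19S bortezomib. Within each treatment every Lo19S library is above every control library, the reverse of JUN. JUNB fell with bortezomib by 0.54 (SE 0.09, edgeR adjusted p = 4e-07) in control cells and by 0.24 (SE 0.08, edgeR adjusted p = 0.00599) in Lo19S cells. It was higher in Lo19S by 0.57 (SE 0.09, edgeR adjusted p = 1.1e-06) with bortezomib and by 0.27 (SE 0.08, edgeR adjusted p = 0.00694) under DMSO. The DMSO call was lost without control DMSO replicate 1 (0.19, adjusted p = 0.102), without Lo19S DMSO replicate 1 (0.23, adjusted p = 0.0607) and with DESeq2 (adjusted p = 0.0527), and its smallest adjusted p was 3.13e-05, without control DMSO replicate 3. The difference of the responses was 0.30 (95% interval 0.06 to 0.54, edgeR adjusted p = 0.0512). It was called in 5 of 18 alternatives: with library totals (0.40, adjusted p = 0.00839) and without control DMSO replicate 1 (0.38) or 2 (0.33), Lo19S DMSO replicate 1 (0.34) or Lo19S bortezomib replicate 1 (0.34), with adjusted p up to 0.164 in the others.

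JUND, the JUN gene with the highest DMSO level, was at 64.4, 57.3 and 77.3 CPM in control DMSO, 80.5, 77.0 and 73.3 CPM in Lo19S DMSO, 63.0, 59.0 and 64.1 CPM in control bortezomib and 80.8, 72.7 and 75.7 CPM in Lo19S bortezomib. It was not called with bortezomib in control cells (−0.10, edgeR adjusted p = 0.239) or Lo19S cells (−0.01, edgeR adjusted p = 0.876). Lo19S was higher by 0.30 (SE 0.08, edgeR adjusted p = 0.00158) with bortezomib, where the groups do not overlap, and by 0.22 (SE 0.07, edgeR adjusted p = 0.0201) under DMSO, where they do. The DMSO call was lost without control DMSO replicate 1 (0.19) or 2 (0.13, adjusted p = 0.16, the largest) and without Lo19S DMSO replicate 1 (0.18) or 2 (0.22), and it was strongest without control DMSO replicate 3 (0.34, edgeR adjusted p = 2.28e-08). With library totals in place of TMM factors JUND was called lower with bortezomib, by −0.48 in control cells and −0.30 in Lo19S cells. Under that scaling the median of all genes moved by a similar amount, to −0.42 and −0.31. In control cells it was also called lower without control DMSO replicate 2 (−0.19, edgeR adjusted p = 0.0104) and without a filter on low counts (−0.17, adjusted p = 0.0165), with adjusted p from 1.34e-06 to 0.761 over its alternatives.

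The 250 bases before the JUNB and JUND starts are shown because these are the 2 genes that were higher in the Lo19S state. Both windows hold CCAAT on the plus strand, 67 (JUNB) and 74 (JUND) bases before the start, as do 32% of all windows on either strand; it is not in capitals, which mark the motifs found in only 1 of these 2 windows. For JUNB (chr19:12791236-12791485, plus strand) capitals mark TATAAA, the TATA box, 31 bases before the start. For JUND (chr19:18281623-18281872, minus strand) capitals mark TGACGTCA, the cyclic AMP response element, 200 bases before the start, and 2 matches to TGACNNNGC, the antioxidant response element, one of them on the opposite strand as GCGACGTCA.
JUNB: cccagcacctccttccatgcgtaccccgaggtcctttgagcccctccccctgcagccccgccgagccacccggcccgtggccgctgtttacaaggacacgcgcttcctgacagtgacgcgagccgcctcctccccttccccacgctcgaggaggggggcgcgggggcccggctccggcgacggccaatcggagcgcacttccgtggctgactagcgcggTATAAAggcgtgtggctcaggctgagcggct
JUND: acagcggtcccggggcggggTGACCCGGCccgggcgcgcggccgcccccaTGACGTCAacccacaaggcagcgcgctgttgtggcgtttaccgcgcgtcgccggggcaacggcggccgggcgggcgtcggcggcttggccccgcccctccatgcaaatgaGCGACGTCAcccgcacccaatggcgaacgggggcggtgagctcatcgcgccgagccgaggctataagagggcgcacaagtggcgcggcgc

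Across all promoter windows, 10.7% hold TATAAA, 1.65% hold TGACGTCA and 10.9% hold TGACNNNGC on either strand. Among the 7 genes TATAAA was also found for FOS, FOSB and the second ATF3 start, and TGACGTCA for JUND only.

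In the GENCODE annotation HOOK2 overlaps JUNB and ERCC1 overlaps FOSB on the opposite strand. The library kit keeps strand. The strand setting of the counting step is not given in the sources used here, and the JUNB and FOSB counts are uncertain to that degree. HOOK2 in Lo19S against control with bortezomib was at 0.09 (edgeR adjusted p = 0.343), where JUNB was at 0.57. In 3 comparisons it moved the same way as JUNB: it was higher in Lo19S under DMSO by 0.18 (edgeR adjusted p = 0.0363) and fell with bortezomib by 0.40 in control cells and by 0.48 in Lo19S cells, and its part in the JUNB counts was not tested. ERCC1 fell by 0.27 with bortezomib in control cells, where FOSB was called higher.

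**Figure D2:**
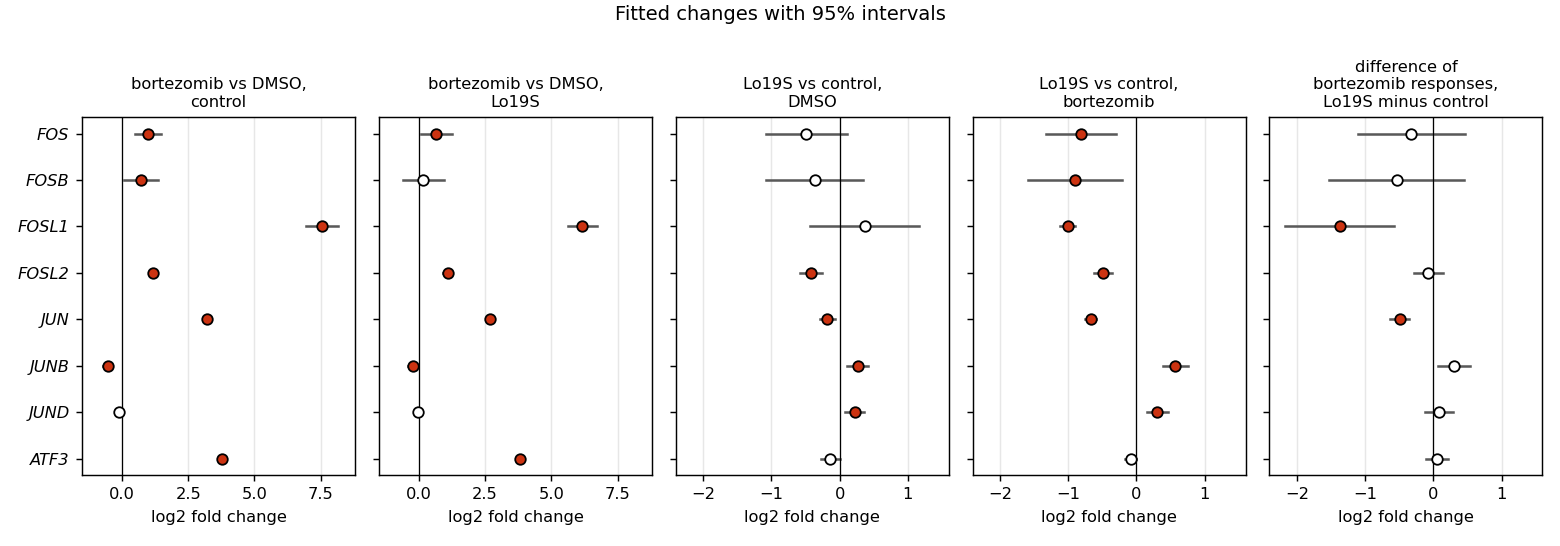
Log2 fold change of each gene (points) with its 95% interval (lines) in 5 comparisons; filled points are called at an adjusted p below 0.05, and the first 2 panels have a wider axis than the other 3. FOSL1 and JUN are the filled points in the last panel, and FOS, FOSB and FOSL1 have the wide intervals of genes with few counts.

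Between the states, 4 of the 8 genes were called under DMSO, 2 higher (JUNB and JUND) and 2 lower (FOSL2 and JUN), against 24.7% of all genes (11.7% higher and 13% lower). With bortezomib 7 of 8 were called, 2 higher (JUNB and JUND) and 5 lower (FOS, FOSB, FOSL1, FOSL2 and JUN), against 43.1% of all genes (22% higher and 21.2% lower). The median of the 8 genes with bortezomib was −0.58, and that of all genes 0.00. The difference of the responses was called for 2 of 8, both lower (FOSL1 and JUN), against 27.8% of all genes (14.4% higher and 13.4% lower), with medians of −0.20 and 0.01. The DMSO count was 2 without control DMSO replicate 1 and 2 without Lo19S DMSO replicate 1, and the count for the responses was 1 without Lo19S DMSO replicate 2. These comparisons share libraries and are not independent of each other.

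Levels of different genes were compared as CPM per kilobase of merged exons. In DMSO cells of both states the order was JUND, JUNB, JUN, ATF3, FOSL2, and then FOS, FOSL1 and FOSB in control and FOSL1, FOS and FOSB in Lo19S, where neighbours in the order overlap. In control DMSO the means ran from 35.6 for JUND, 16.1 for JUNB, 12.8 for JUN, 6.99 for ATF3 and 3.87 for FOSL2 down to 0.254 for FOSB. In control bortezomib the order was JUN (117), ATF3 (95.4), FOSL1 (69.8), JUND (33.3), JUNB (11.04), FOSL2 (8.61), FOS (1.14) and FOSB (0.411), with no overlap between neighbours. In Lo19S bortezomib it was ATF3 (90.0), JUN (73.6), JUND (41.0), FOSL1 (34.8), JUNB (16.3), FOSL2 (6.14), FOS (0.62) and FOSB (0.227), again with no overlap. JUN was thus above ATF3 in control bortezomib and below it in Lo19S bortezomib, and FOSL1 above JUND in the first and below it in the second. The place of ATF3 rests on its length, 4040 merged bases against 2103 in its longest transcript. With the latter ATF3 led both bortezomib groups (183 and 173), overlapped JUN under DMSO, and JUND and FOSL1 overlapped in Lo19S bortezomib.

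FOS family mRNA was mostly FOSL2 under DMSO and mostly FOSL1 with bortezomib. FOSL2 made up 76.4% ± 3.28 (SD, n = 3) of the summed FOS family level per length in control DMSO and 73.1% ± 2.72 in Lo19S DMSO. With bortezomib FOSL1 made up 87.3% ± 0.378 in control cells and 83.3% ± 0.196 in Lo19S cells, against 7.29% ± 1.08 and 12.1% ± 3.26 under DMSO. FOS held 11.3% and 10.01% under DMSO and 1.42% and 1.49% with bortezomib, in control and Lo19S. The summed FOS family level per kilobase was 5.07 in control DMSO, 3.96 in Lo19S DMSO, 79.98 in control bortezomib and 41.7 in Lo19S bortezomib.

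In the JUN family JUND was the largest part under DMSO, with 55.1% ± 2.05 in control and 57.5% ± 0.619 in Lo19S, and JUN the largest with bortezomib, with 72.5% ± 0.796 in control and 56.2% ± 0.984 in Lo19S. JUNB and JUND together made up the rest, 6.84% and 20.6% in control bortezomib against 12.5% and 31.3% in Lo19S bortezomib. The libraries of the 2 bortezomib groups do not overlap in any of these 3 shares. The summed JUN family level per kilobase was 64.5, 71.8, 161 and 131 in control DMSO, Lo19S DMSO, control bortezomib and Lo19S bortezomib. These shares describe mRNA, not protein, and were not tested.

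**Figure D3:**
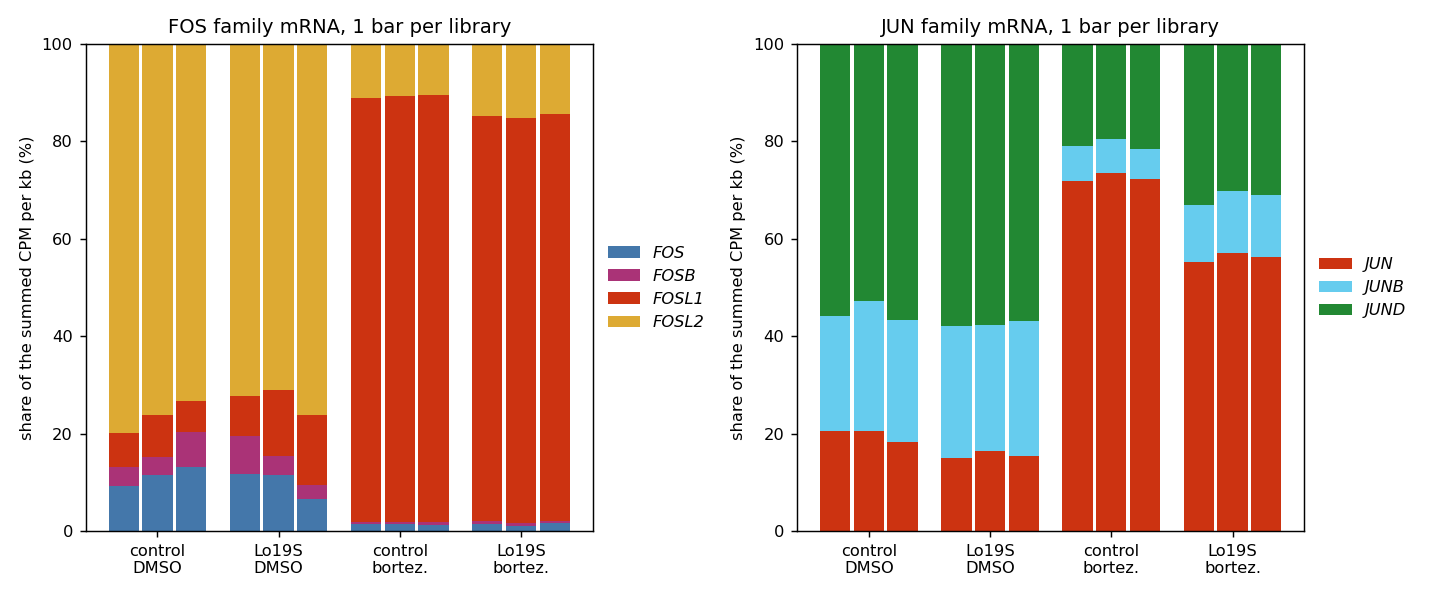
Share (%) of each gene in the summed CPM per kilobase of its family, with 1 stacked bar per library and 3 bars per group. FOSL2 fills most of the FOS family bars under DMSO and FOSL1 most of them with bortezomib, while JUN fills 71.9 to 73.4% of the JUN family in control bortezomib and 55.2 to 57.2% in Lo19S bortezomib.

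Other leucine zipper proteins that can pair with AP-1 proteins were measured for 11 of 14 listed genes. With bortezomib in control cells 5 were higher and 3 lower (median 0.37), against 39.2% and 42.2% of all genes. Lo19S against control with bortezomib had 1 higher and 6 lower (median −0.57, against 0.00 over all genes). Of all genes 22% were higher and 21.2% lower there. JDP2, a repressor that pairs with JUN proteins, was the 1 higher gene between the states (0.41); like the genes singled out in the same way for the lists that follow, it was named after its values were seen. MAFF, MAFG and MAFK, the small MAF proteins that lack an activation domain, rose in control cells by 5.54, 3.76 and 2.12 and were lower in Lo19S with bortezomib by −0.72, −0.57 and −0.58. MAFF was also lower in Lo19S under DMSO (−0.59, edgeR adjusted p = 0.0495), and its difference of the responses was not called (−0.13, edgeR adjusted p = 0.737). CREB5, a partner of JUN from the ATF2 subfamily, rose from 4.28 ± 0.436 to 48.5 ± 2.85 CPM in control cells and was lower in Lo19S with bortezomib by −0.996 (edgeR adjusted p = 3.96e-14). The difference of the responses was called for 3 of the 11, all lower, among them CREB5 and MAFG (−0.96 and −1.06). Among all genes 14.4% were called higher and 13.4% lower in that test. MAFG was higher in Lo19S under DMSO by 0.50 (edgeR adjusted p = 5.04e-08), which is part of its −1.06. CREB5 was at −0.04 there (edgeR adjusted p = 0.914).

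The list of ATF4 and C/EBP factors holds genes of the integrated stress response and their relatives, all but TRIB3 leucine zipper genes. It had 10 higher and 1 lower of 11 with bortezomib in each state (medians 1.32 in control and 1.10 in Lo19S). The shares over all genes were 39.2% higher and 42.2% lower in control cells, and 37.8% and 39.7% in Lo19S cells. Between the states with bortezomib 2 were higher and 5 lower, with a median of 0.02, against 22% and 21.2% of all genes. DDIT3, which encodes CHOP, went from 19.9 ± 1.04 to 322 ± 3.14 CPM in control cells and from 21.3 ± 1.92 to 415 ± 18.7 CPM in Lo19S cells, and with bortezomib it was higher in Lo19S by 0.37 (edgeR adjusted p = 7.5e-11). CEBPB stood at 124 ± 5.58 and 125 ± 16.2 CPM in the 2 bortezomib groups, a difference of 0.02 (edgeR adjusted p = 0.857). CREM was the listed gene with the largest drop between them, −0.48 (edgeR adjusted p = 4.38e-10). Under DMSO CREM was higher in Lo19S, by 0.53 (edgeR adjusted p = 0.000105). CEBPA, the 1 lower gene in each state, fell with bortezomib in control cells by 2.33, from 77 to 11 summed counts. It had enough counts only through DMSO libraries, where it was high, so its fall is no support for a change of the list.

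Of 25 listed AP-1 target genes 16 had enough counts. With bortezomib 13 were higher and 3 lower in each state (medians 1.96 in control and 1.44 in Lo19S). Over all genes 39.2% were higher and 42.2% lower in control cells, and 37.8% and 39.7% in Lo19S cells. Between the states with bortezomib 4 were higher (CCND1, EZR, MMP13 and SPP1) and 7 lower (median −0.25), against 22% and 21.2% of all genes. CXCL8, MMP13 and SPP1 had enough counts only through bortezomib libraries, SPP1 only through those of Lo19S cells (3.03 CPM). Their calls as higher in those libraries are therefore no support for a rise of the list. The 3 that fell with bortezomib were CCND1, which encodes cyclin D1, GJA1 and VIM. CXCL8, a chemokine gene, had 3 counts over the control DMSO libraries and 977 over the control bortezomib libraries, a scaled ratio of 443 with a 95% counting interval of 151 to 2150. It was lower in Lo19S with bortezomib (15.7 ± 0.661 against 38.2 ± 1.64 CPM, −1.27, edgeR adjusted p = 2.07e-15). HBEGF, a ligand of the EGF receptor, was lower too (58.0 ± 4.35 against 111 ± 2.43 CPM, −0.94). HBEGF was also lower in Lo19S under DMSO (−0.51, edgeR adjusted p = 0.0159), and its difference of the responses was not called (−0.43, edgeR adjusted p = 0.0726). MMP13, a collagenase, went the other way: 7.93 ± 1.39 CPM in Lo19S bortezomib against 5.31 ± 0.571 in control bortezomib (0.59, edgeR adjusted p = 0.00338; 0.0742 by DESeq2). Under DMSO it had 14 counts in Lo19S and 2 in control, a scaled ratio of 7.25 (95% counting interval 1.67 to 65.8).

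Upstream, a list of SRF, its ternary complex partners of the ELK group and the MRTF and MEF2 factors was measured for 8 genes. With bortezomib it had 6 higher and 1 lower in each state. Over all genes the shares were 39.2% and 42.2% in control cells, and 37.8% and 39.7% in Lo19S cells. SRF and the ELK proteins are known to act at the serum response element of FOS, while the MEF2 proteins, also on the list and both among the 6, bind other sites. SRF itself rose by 0.75 in control cells and 0.59 in Lo19S cells and was lower in Lo19S with bortezomib (85.0 ± 3.02 against 109.5 ± 1.77 CPM, −0.37). ELK3 was higher with bortezomib by 1.23 in control cells, and in Lo19S cells its 0.28 became −0.01 with library totals (edgeR adjusted p = 0.925). Under DMSO ELK3 was already higher in Lo19S, by 0.52 (edgeR adjusted p = 0.000219). The 22 MAP kinase genes were mixed. With bortezomib in control cells 8 were higher and 10 lower (median −0.06), against 39.2% and 42.2% of all genes. In Lo19S against control with bortezomib 7 were higher and 4 lower (median 0.14), against 22% and 21.2% of all genes. MAP3K8, the kinase TPL2, rose by 2.33 in control cells and was lower in Lo19S with bortezomib by −0.67. MAP2K6, an activator of p38, had 209 counts in control DMSO and 1 in control bortezomib, a scaled ratio of 154 (95% counting interval 27.3 to 6100). It had enough counts only through its DMSO libraries, where it was high, so its fall is no support for a change of the list.

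Among 14 genes of AU-rich element binding and mRNA decay, 6 were higher and 6 lower with bortezomib in control cells (median 0.03). Over all genes 39.2% were higher and 42.2% lower. ZFP36, whose protein promotes decay of short-lived mRNAs, rose by 1.85 in control cells and 1.36 in Lo19S cells and was lower in Lo19S with bortezomib by −0.55. Its relative ZFP36L2 fell by 2.16 and 1.95 and was higher in Lo19S with bortezomib by 0.52. Of 7 genes for ubiquitin ligases and other regulators of AP-1 proteins, 3 were higher and 3 lower with bortezomib in control cells, against those same shares. Between the states with bortezomib 1, COP1, was called (0.49 higher in Lo19S), against 43.1% of all genes. ITCH, a ligase for JUN proteins, rose from 109 ± 8.11 to 202 ± 5.95 CPM in control cells, and FBXW7, another ligase that recognises JUN, from 23.4 ± 1.95 to 36.4 ± 1.92 CPM.

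**Figure D4:**
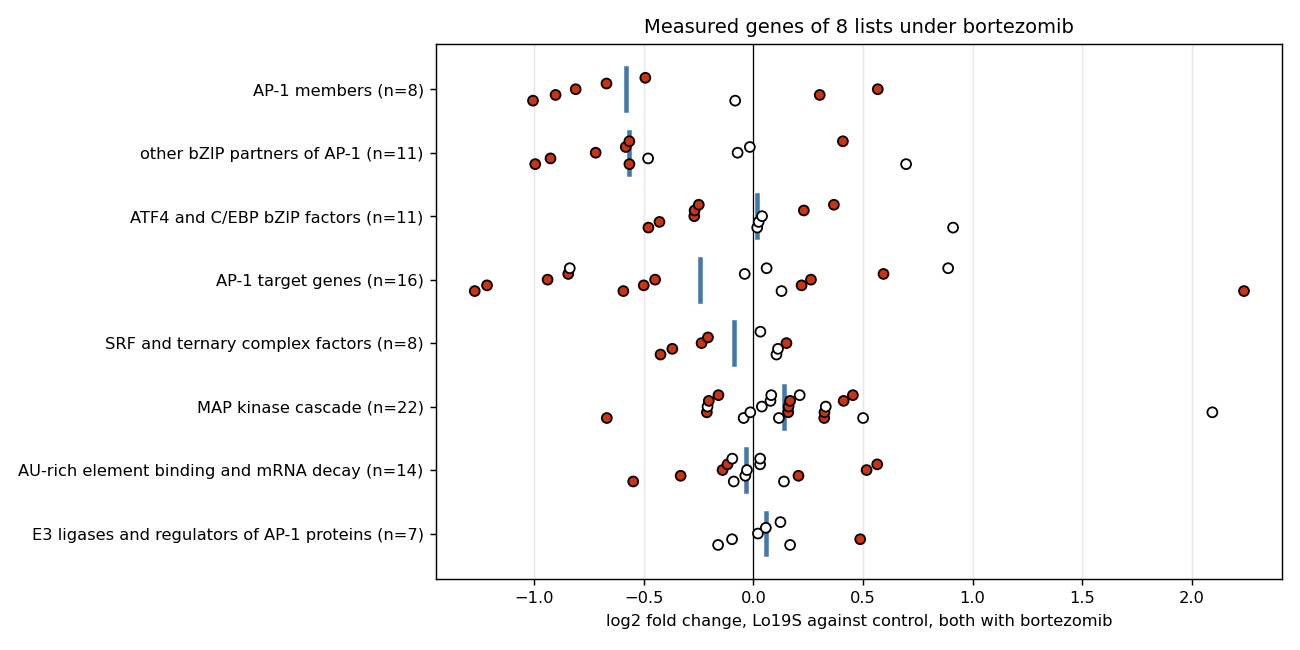
Log2 fold change of Lo19S against control, both with bortezomib, for the measured genes of 8 lists (1 point per gene, spread vertically for visibility; filled points are called; the thick line is the median). The AP-1 genes and their other leucine zipper partners have medians of −0.58 and −0.57, and the ATF4 and C/EBP list has a median of 0.02.

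The genes most like each member over the 12 libraries were found by the root mean square difference of centred log2 CPM. A small value means a similar pattern and size on that scale, where a prior count of 2 draws low levels together. For FOSL1 the nearest were CXCL8 (0.306), HSPA1B (0.335) and HSPA1A (0.363), against its own SD of 3.46. The last 2 are near-identical copies whose reads can be split between them. CXCL8 had 3 and 2 summed counts in control and Lo19S DMSO, and FOSL1 had 24 and 30, so their likeness rests partly on the prior count. The scaled ratios with bortezomib in control and Lo19S cells were 443 and 266 for CXCL8 and 191 and 73.4 for FOSL1. For JUN the nearest were HERPUD1 (0.125), SLC8B1 (0.127) and EPHA2 (0.141), and for ATF3 HSPA5 (0.115), ZNF365 (0.173) and CD55 (0.178). FOSL2 was closest to CCNE1 (0.0982), LIN52 (0.101) and ANKH (0.109). JUNB was closest to TTC8 (0.0744), PPIL2 (0.077) and HS1BP3 (0.0838), and JUND to VPS28 (0.0714), POLL (0.0749) and UBL7 (0.0755). FOS had ENSG00000260196, EGR1 and CDC25A (0.186 to 0.23), and FOSB had SLC16A9, MTCO2P12 and HOMER3 (0.254 to 0.28), both members with few counts. No member was among the 3 nearest genes of another: the best rank was that of ATF3 for FOSL1, at 59, followed by JUN for ATF3, at 82.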

How the data were processed

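The labels' protocols give TRIzol extraction and a TruSeq stranded polyA mRNA kit. The deposited files hold raw read counts per Ensembl gene, 1 file per library; the submitters' processing notes name STAR 2.5.4b, featureCounts 1.6.1 and GRCh37, with no settings. Counts were filtered by group with filterByExpr (14714 of 57773 genes kept), scaled with TMM and fitted over all 12 libraries with edgeR 4.0.16 (robust quasi-likelihood, R 4.3.3), with 5 comparisons and Benjamini-Hochberg adjustment over all genes. SEs are Wald errors from the fit's moderated dispersion. No row lacked a gene. The smallest detectable level, 3 counts, equals 0.216 to 0.439 CPM per library; intervals on count ratios cover counting error only.

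The members and gene lists were chosen with earlier results of these data known. From each list up to 4 genes were named, those with the largest absolute change among genes called with bortezomib in control cells. Of 135 listed genes 133 were found and 102 tested. Exon lengths come from GENCODE 29 (GRCh38), another build than that of the counts, so levels per length are approximate. The labels do not say whether replicate numbers pair the samples, and the main fit used no pairing. Alternatives were DESeq2 1.42.0, other scalings, no filter, a non-robust fit, only the groups compared, a replicate block and leaving out each library. The script was tested on simulated data.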

Additional observations from a re-analysis of the deposited data

Results flagged for a closer look

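The response to bortezomib differed between the states for 2 of the 8 genes by edgeR's test of the difference itself. FOSL1 rose less in Lo19S than in control cells by −1.37 on the log2 scale (edgeR adjusted p = 0.0036), with 24 and 30 DMSO counts behind the 2 responses. JUN rose less by −0.49 (edgeR adjusted p = 1.92e-07), with all 3 Lo19S bortezomib libraries below all 3 control bortezomib libraries. With 3 libraries per group, single libraries were not tested as outliers.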

How the results depend on the processing

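No called difference of the 8 genes changed sign under any alternative; of 750 refits, 707 kept their side of the threshold, 30 lost and 13 gained a call. The number of the 8 genes called between the states under DMSO (4) was 2 to 4 when single libraries were left out, with 2 without control DMSO replicate 1 and 2 without Lo19S DMSO replicate 1. For the difference of the responses (2) it was 1 to 3, with 1 without Lo19S DMSO replicate 2. With the longest transcript as length, the FOS share of its family was 14.9%, 13.2%, 1.88% and 1.98%, and the FOSL2 share 71.5%, 68.6%, 10.2% and 13.9%, in control DMSO, Lo19S DMSO, control bortezomib and Lo19S bortezomib, and the FOSB share 0.667% and 0.71% in the bortezomib groups. Library totals in place of TMM factors moved the median of all genes to −0.42 and −0.31 for bortezomib in control and Lo19S cells, to 0.12 for Lo19S against control with bortezomib and to 0.10 for the difference of the responses. The share of calls that were higher was then 30.5% in place of 48.1%, 32% in place of 48.7%, 72.3% in place of 50.9% and 72.6% in place of 51.9%. Among other named genes 1 of 2721 refits reversed a called difference, ELK3 with bortezomib in Lo19S cells (−0.01082 with library totals, edgeR adjusted p = 0.925). A fit with the replicate number as a block called 3445, 11922, 11349, 6196 and 3889 genes in place of 3628, 11976, 11408, 6349 and 4094 (Lo19S against control under DMSO, bortezomib in control, bortezomib in Lo19S, Lo19S against control with bortezomib, difference of the responses), and 4, 7, 6, 7 and 2 of the 8 genes, the same numbers as without it. Same-numbered libraries deviated together with correlations of only −0.07 to 0.03. In 2 of 6 pairs of groups each library correlated best with its own number. These were the DMSO and bortezomib groups of control cells, and the DMSO and bortezomib groups of Lo19S cells. Whether same-numbered libraries were paired is therefore not settled. The difference of the responses needs all 4 groups, so the fit with only the groups compared was not run for it, and DESeq2 gave no adjusted p for FOSB there. The few DMSO counts of FOSL1, FOS and FOSB limit what could be detected.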
